A study of Mus musculus with 16 samples.

Results

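The identity genes of quiescent hepatic stellate cells (HSCs) were followed through RNA sequencing of 4 liver cell types. They were 10 of the 47729 genes counted, chosen by symbol: Reln, Ngfr, Hgf, Hhip, Ecm1, Colec10, Colec11, Lhx2, Gfap and Nes. All 10 were found once in each of the 16 libraries. There were 2 libraries for each combination of cell type and genotype label, and the cell types were HSCs, endothelial cells (ECs), Kupffer cells (KCs, the resident macrophages) and hepatocytes (HEP). The line carried floxed Zeb2 alleles, with loxP sites around exon 7, on an R26R reporter background for enhanced green fluorescent protein, and all mice received tamoxifen on 5 consecutive days, at 2 mg per day. Mice labelled KO carried Cdh5-CreERT2, a tamoxifen-dependent Cre recombinase driven by an endothelial promoter, so that in HSCs, KCs and hepatocytes the KO label names the genotype of the mouse, with no deletion intended in the cells sequenced. Mice labelled WT were littermates without Cre. The animals were adult males of 8 weeks with unchallenged livers, and RNA was taken 2 weeks after tamoxifen. HSCs had been sorted by their autofluorescence under ultraviolet light, which comes from stored vitamin A. KCs had been sorted by F4/80 and ECs by the pan-endothelial antibody Meca32 from cells without that autofluorescence, and hepatocytes had been separated by centrifugation.

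HSCs are the pericytes of the liver sinusoid. At rest they store retinoids in lipid droplets and carry a set of genes that other liver cells use little, some of them better known from neurons and glia. After injury they turn into contractile, collagen-producing myofibroblasts, and the loss of resting genes together with the gain of muscle and collagen genes is how this activation is usually read.

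The libraries held between 12872706 and 15690506 reads on genes, and 3 counts, the smallest level taken as measurable, were 0.191 to 0.233 CPM (counts divided by the total on genes and scaled to the same sum in every library). These limits cover counting error only. Zeb2 was counted at 106 and 106 CPM in the EC libraries labelled WT and at 199 and 130 CPM in those labelled KO, with no fall under the KO label. The fitted log2 fold change was 0.62 (SE 0.24, edgeR adjusted p = 0.303). The authors report from their own assays that Zeb2 was deleted efficiently in ECs, also at the mRNA level. The count used here covers the whole gene and cannot show exon 7 apart, and groups are called by their labels. The HSC label held against its markers: all 16 other HSC markers, such as Lrat, Des, Dcn and Pdgfrb, were higher in HSC than in EC, KC and hepatocyte libraries (edgeR, adjusted p under the threshold of 0.05). RNA of other cells differed with the label. The 857 hepatocyte-enriched genes stood at a median of 3.91% and 7.94% of their hepatocyte level in the HSC libraries labelled WT, against 0.915% and 1.39% in those labelled KO. The 10 EC markers stood at medians of 3.72% and 2.02% of their EC level there, against 1.18% and 1.55%. The median of the 10 KC markers stood between 0.917% and 5.17% of their WT KC level in the HSC libraries, and the WT and KO ranges overlapped. The summed level in HSC libraries was 7.54 to 13.2 CPM for 5 cholangiocyte markers and 6.71 to 30.1 CPM for 5 mesothelial markers. The mesothelial markers tested were estimated higher under the KO label, short of the threshold (log2 fold change of Upk1b 3.65, Msln 1.54, Upk3b 1.05 and Wt1 0.37). Cholangiocyte markers went in both directions. For 5 lymphocyte markers the summed level was 18.8 and 14.4 CPM (WT) and 5.46 and 3.87 CPM (KO). The part of these cells in the results was not tested.

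The promoters of the members differed in their content of CG. RefSeq promoter windows on GRCm38.p6 were at hand for 9 of the 10 genes, all but Colec10, and the 250 bases before the start site were read. Those of 3 genes are shown: Ecm1, the most abundant member, and Hhip and Lhx2, the members with the lowest and the highest fold change between labels in HSCs. They lie at chr3:95739570-95739819 (minus strand), chr8:80058009-80058258 (minus strand) and chr2:38339031-38339280 (plus strand), and are written 5′ to 3′ with CG dinucleotides and TATAAA in capitals.
Ecm1: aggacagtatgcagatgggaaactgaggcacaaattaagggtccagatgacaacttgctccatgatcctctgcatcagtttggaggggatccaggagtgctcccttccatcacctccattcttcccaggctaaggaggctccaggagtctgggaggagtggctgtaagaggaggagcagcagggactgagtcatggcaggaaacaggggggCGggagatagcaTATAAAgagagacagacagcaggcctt
Hhip: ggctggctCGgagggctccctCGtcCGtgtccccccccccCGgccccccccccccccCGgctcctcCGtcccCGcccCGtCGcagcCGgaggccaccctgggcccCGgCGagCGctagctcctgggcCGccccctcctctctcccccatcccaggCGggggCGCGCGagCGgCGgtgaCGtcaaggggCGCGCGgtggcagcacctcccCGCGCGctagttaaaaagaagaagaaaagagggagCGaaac
Lhx2: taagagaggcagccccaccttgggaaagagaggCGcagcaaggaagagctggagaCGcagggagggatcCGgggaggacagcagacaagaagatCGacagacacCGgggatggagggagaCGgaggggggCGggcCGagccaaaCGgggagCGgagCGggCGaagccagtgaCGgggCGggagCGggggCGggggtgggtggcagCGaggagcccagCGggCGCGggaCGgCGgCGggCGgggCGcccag

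The Ecm1 window held 1 CG and a TATAAA that began 27 bases before the start site. The Hhip and Lhx2 windows held 28 and 25 CG dinucleotides, against a median of 6 over 32851 promoter windows of the same length. Reln had 37, Ngfr 16 and Nes 15, while Hgf had 4, Colec11 3 and Gfap 2. TATAAA, on either strand, was found in 12.4% of all windows and, of the 9, in Ecm1. CACCTG, the E-box that Zeb proteins are known to bind, was found on either strand in 17.2% of all windows and in 0 of the 9. TAATTA, a core that homeodomain proteins such as Lhx2 can bind, was found in 4.84% of all windows and in 0 of the 9. These are matches of letters and not sites of binding.

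Ecm1 and Colec11 were the most abundant members in HSCs. Gene positions are those of GENCODE vM21 on GRCm38. Ecm1 (ENSMUSG00000028108, chr3:95734147-95739569, minus strand) encodes extracellular matrix protein 1, a secreted glycoprotein. It was counted at 29692 and 33982 CPM in the HSC libraries labelled WT and at 35232 and 42333 CPM in those labelled KO, so that about 3 to 4 of every 100 reads on genes came from it. In the other cell types it stayed between 38.6 and 684 CPM. Colec11 (ENSMUSG00000036655, chr12:28594173-28623377, minus strand), a collectin that binds sugars on microbes and can start the lectin pathway of complement, was counted at 5129 and 6566 CPM (WT) and at 6446 and 9003 CPM (KO), and its highest value elsewhere was 109 CPM. Colec10 (ENSMUSG00000038591, chr15:54410774-54466358, plus strand), the collectin that pairs with it, was counted at 1903 and 1311 CPM (WT) and at 1755 and 1745 CPM (KO), and at most at 22.8 CPM elsewhere. For these 3 genes the lowest HSC library lay 43.4, 47.1 and 57.4 times above the highest library of any other cell type.

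Of the signalling molecules, Reln (ENSMUSG00000042453, chr5:21884454-22344702, minus strand) encodes reelin, a large secreted protein that guides neurons and marks HSCs in the liver. It was counted at 1638 and 1756 CPM (WT) and at 1912 and 1261 CPM (KO) in HSCs, and its highest value elsewhere was 28.2 CPM, in an EC library. In KCs it ranged from 1 count, 0.0677 CPM, to 16.2 CPM within the KO label. Hgf (ENSMUSG00000028864, chr5:16553495-16620152, plus strand) encodes hepatocyte growth factor, the ligand of the receptor Met on hepatocytes, and is known to be made by liver endothelium too. It was counted at 725 and 660 CPM (WT) and at 807 and 561 CPM (KO) in HSCs. In ECs it reached 82.6 and 117 CPM (WT) and 48.3 and 53.3 CPM (KO), which was 6.98% to 16.9% of the mean of the HSC WT libraries. The 16 other HSC markers stayed at or under 4.91% of their own HSC level in every EC library, so that Hgf lay above all of them there.

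Ngfr (ENSMUSG00000000120, chr11:95568818-95587735, minus strand) encodes the neurotrophin receptor p75. It was counted at 1890 and 2362 CPM (WT) and at 1311 and 1681 CPM (KO) in HSCs, against at most 35.1 CPM elsewhere. Hhip (ENSMUSG00000064325, chr8:79965851-80058006, minus strand) encodes a membrane-bound protein that binds hedgehog ligands and keeps them from their receptor. It was counted at 291 and 204 CPM (WT) and at 131 and 93.7 CPM (KO), and at most at 4.47 CPM elsewhere. In both genes the HSC libraries labelled KO lay below those labelled WT without overlap.

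Lhx2 (ENSMUSG00000000247, chr2:38339281-38369733, plus strand), a LIM-homeodomain transcription factor needed to keep HSCs quiescent, was counted at 40.0 and 64.6 CPM (WT) and at 96.3 and 79.0 CPM (KO) in HSCs, where the KO libraries lay above the WT libraries. Its highest value elsewhere was 1.41 CPM. In the 4 hepatocyte libraries together it had 4 counts, and its pooled raw CPM in HSCs was 1052 times that in hepatocytes. The 95% Poisson interval of this ratio, from 411 to 3859, covers counting error in hepatocytes only and no normalization between cell types. In the normalized fit over the 16 libraries the log2 fold change was 8.97 (SE 1.20, edgeR adjusted p = 4.6e-05). Gfap (ENSMUSG00000020932, chr11:102887336-102900912, minus strand) encodes the intermediate filament of astrocytes and was counted at 37.7 and 36.5 CPM (WT) and at 23.7 and 43.3 CPM (KO) in HSCs. It had 0 counts in all KC and hepatocyte libraries. In raw CPM, against a floor of 3 counts per library, it was at least 177-fold higher in HSCs than in KCs. The same raw bound against hepatocytes was 178-fold. The fits used normalization factors of 0.497 to 0.588 for hepatocytes and 1.14 to 1.24 for HSCs, so that the hepatocyte bound would be lower on their scale. In ECs it had between 0 and 36 counts per library.

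Nes (ENSMUSG00000004891, chr3:87971078-87980451, plus strand) encodes nestin, an intermediate filament of neural progenitors that is also known from endothelium, and it was the exception. It was counted at 34.6 and 45.7 CPM (WT) and at 53.6 and 33.9 CPM (KO) in HSCs, and at 39.8 and 55.3 CPM (WT) and 58.6 and 104 CPM (KO) in ECs. The EC and HSC libraries overlapped, and the highest values were in ECs. KCs and hepatocytes had at most 3.36 CPM.

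**Figure D1:**
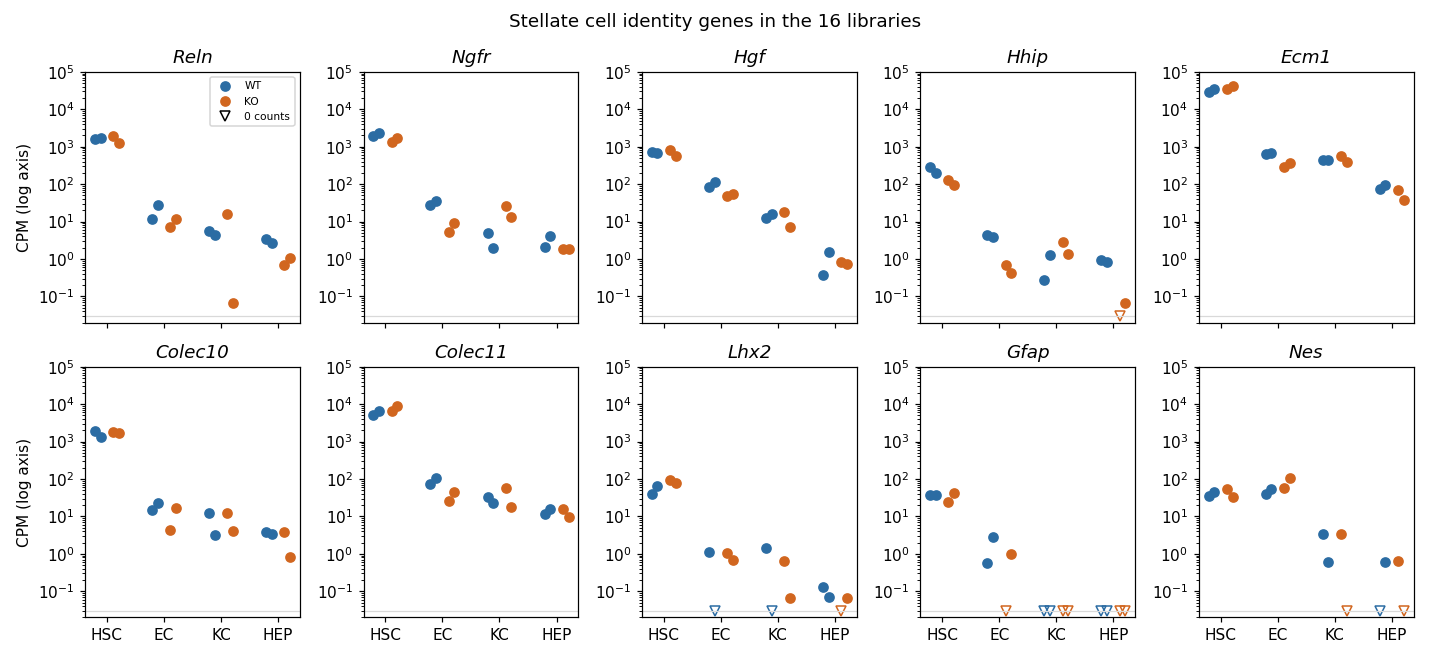
CPM (log axis) of the 10 genes in each of the 16 libraries, by cell type, with the WT label in blue and the KO label in orange, 1 point per library and open triangles for 0 counts. For 9 genes the 4 HSC points lie above all others, whereas for Nes the EC points reach 104 CPM and overlap those of HSCs.

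To ask how specific these genes were to HSCs, the 4 HSC libraries were compared with the 4 of each other cell type in one fit over the 16 libraries. Of the 10 members, 9 were higher in HSCs than in ECs, where 12.8% of the 17214 genes tested were higher. All 10 were higher than in KCs (22.3% of all genes) and all 10 than in hepatocytes (34.0%). The 9 members other than Nes were higher in HSCs in all 3 comparisons, as were 6.66% of all genes. They were also at least 3 higher on the log2 scale in all 3, as were 3.87%. These comparisons rest on 2 libraries per group, and cells of different types may come from the same liver, which the fit treats as independent.

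The log2 fold change against ECs was 7.16 (SE 0.96, edgeR adjusted p = 0.000174) for Reln, the highest, and 3.51 (SE 0.37, edgeR adjusted p = 2.48e-05) for Hgf, the lowest that passed. For Nes it was −0.34 (SE 0.81, edgeR adjusted p = 0.815), and over the WT libraries alone it was 0.04 (SE 0.87, edgeR adjusted p = 0.988). Against KCs the fold change of Nes was 4.42 (SE 0.96, edgeR adjusted p = 0.00292) and that of Reln 7.93 (SE 0.995, edgeR adjusted p = 6.41e-05). The median of the members was 6.90 against ECs, where all genes had a median of −0.02. With Gfap at its lower bound in raw CPM it was 7.23 against KCs (all genes 0.09) and 8.23 against hepatocytes (all genes 0.60). With Gfap as fitted it was 7.30 and 8.45. The members had been chosen as HSC genes from what is known of them, and their height in HSCs was known from these data beforehand.

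Read as a share of the summed mean CPM of the 4 cell types, 8 of the 10 genes had between 95.7% (Gfap) and 98.4% (Reln) of their RNA in HSCs under the WT label. Hgf had 85.8% and Nes 44.6%. A share of at least 90% was found for 3.50% of the 15636 genes whose mean reached 1 CPM in some cell type. Under the KO label the shares of Hgf and Nes were 91.4% and 34.4%, with the other 8 between 97.7% and 98.9%, and 4.01% of genes reached 90%.

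Levels of different genes can be compared only per length of their exons. On the TPM scale (reads per exonic length, with the same total in every library) Ecm1 led with 44615 ± 5660 (SD, n = 4 HSC libraries), followed by Colec11 with 13313 ± 2839. Ngfr followed with 1677 ± 405 and Colec10 with 1169 ± 186, and the ranges of these 2 overlapped. Hgf with 307 ± 52.9 and Reln with 221 ± 41.5 also overlapped. Hhip stood at 63.6 ± 31.5, Lhx2 at 50.8 ± 17.4, Gfap at 26.6 ± 5.82 and Nes at 20.9 ± 5.03, and each of these overlapped with the next. Reln stood below Colec10 on this scale, and its exons cover 23738 bases against 4587 in Colec10. Exons of Reln overlap an annotated antisense gene, those of Hhip a small RNA on the opposite strand, those of Hgf an unclassified transcript on the same strand and those of Ecm1 a microRNA on the same strand, and how the counting treated strand is not given in the sources used here.

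**Figure D2:**
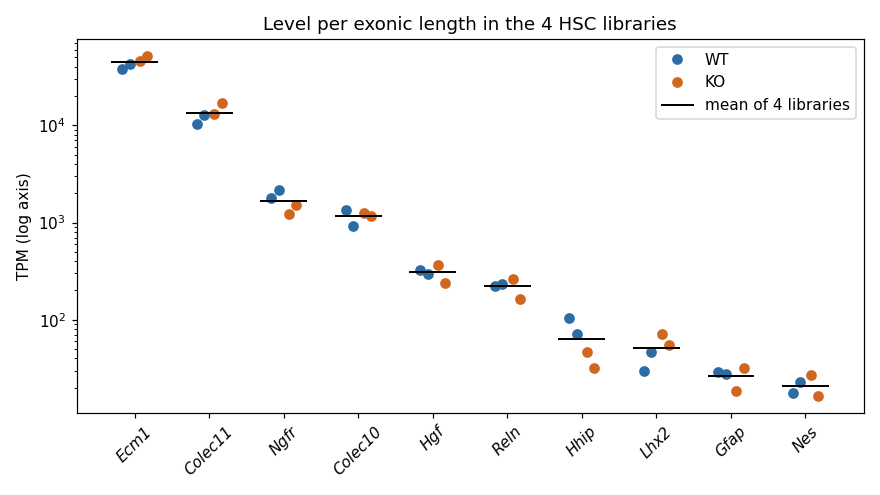
TPM (log axis) of the 10 genes in the 4 HSC libraries, in order of their mean (black line), with WT libraries in blue and KO libraries in orange. Ecm1 (44615) and Colec11 (13313) stand apart from the rest, and the 4 lowest genes overlap with their neighbours.

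In HSCs no member passed the threshold between the KO and the WT label. None of the 14390 genes tested passed it (0%), with 1259 genes (8.75%) at an unadjusted p under 0.05. DESeq2 called 17 genes higher and 391 lower (2.84%). Of the members 5 were estimated higher and 5 lower under the KO label, with a median log2 fold change of 0.02, as against 0.02 for all genes. Hhip was lowest, with a log2 fold change of −1.17 (SE 0.28), that is 0.444 times the WT level, an unadjusted p of 0.00676 and an edgeR adjusted p of 0.356. DESeq2 gave an adjusted p of 0.0143 for Hhip and edgeR with all low counts kept gave 0.00381, where 2.70% of all genes were called. Lhx2 was highest, with 0.73 (SE 0.28), or 1.65 times the WT level, an unadjusted p of 0.0418 and an edgeR adjusted p of 0.548.

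Ngfr had −0.52 (SE 0.26), Colec11 0.40 (SE 0.30) and Ecm1 0.27 (SE 0.27), and the other 5 lay between −0.15 (Gfap) and 0.10 (Colec10). In CPM scaled by the normalization factors, the KO and WT libraries did not overlap for Hhip, Ngfr and Lhx2. These were 3 of 10 genes, against 40.5% of all genes tested. Ecm1 did not overlap in raw CPM, but it did on the normalized scale (25643 and 28956 WT, 28333 and 37039 KO). The direction turned without KO library 20 for Reln, without KO library 20 or WT library 32 for Hgf, without WT library 40 for Colec10, without KO library 8 for Gfap, and without KO library 8 or WT library 32 for Nes. Hhip and Ngfr stayed lower and Lhx2 higher without any 1 of the 4 libraries. The lower hepatocyte and EC marker RNA in the HSC KO libraries moved with the label, as described above. The part of this RNA in the member values was not tested. Fewer expressing cells and less RNA per cell cannot be told apart in bulk libraries.

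**Figure D3:**
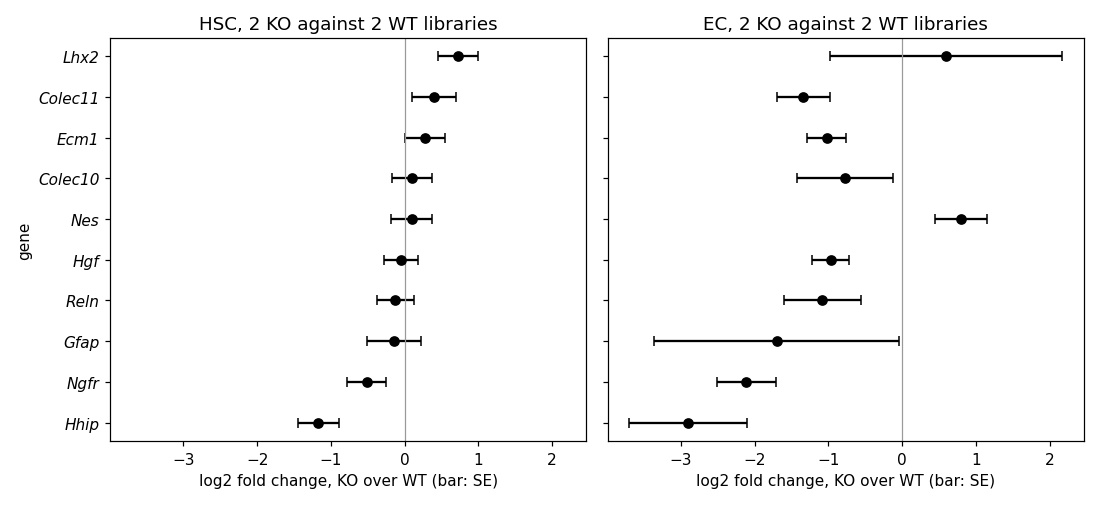
Log2 fold change of the 10 genes under the KO label over the WT label, in HSC libraries (left) and EC libraries (right), with bars for the SE of the edgeR fit (2 against 2 libraries each). In HSCs the values run from −1.17 (Hhip) to 0.73 (Lhx2), and in ECs 8 of 10 lie below 0.

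The partners of the members in their pathways were read in the same HSC comparison, and 0 of them passed the threshold in either direction. Of the hedgehog genes 10 of 13 were tested, 5 estimated higher and 5 lower. Ptch1, the hedgehog receptor and itself a target of the pathway, had 33.2 and 29.3 CPM (WT) and 40.0 and 37.3 CPM (KO), a log2 fold change of 0.28 (SE 0.23, edgeR adjusted p = 0.819). Gas1, a co-receptor, had 33.0 and 52.9 CPM (WT) and 48.5 and 63.1 CPM (KO). Among neurotrophin genes, 6 of 8 were tested and 3 were estimated higher. Ntf3, a neurotrophin that Ngfr binds, had 64.2 and 60.8 CPM (WT) and 77.7 and 74.8 CPM (KO), a log2 fold change of 0.27 (SE 0.19, edgeR adjusted p = 0.794).

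All 6 reelin partners tested, of 7, were estimated lower, with a median log2 fold change of −0.49. Itgb1, the integrin β1 chain, fell short of the threshold at −0.68 (SE 0.21, unadjusted p = 0.0181, edgeR adjusted p = 0.441), from 913 and 866 CPM (WT) to 617 and 510 CPM (KO). The kinase Src was next in level, at 21.8 and 57.1 CPM (WT) and 27.7 and 47.0 CPM (KO). Of the lectin pathway genes 5 of 6 were estimated lower. Masp1, a protease that collectins activate, had 2042 and 2323 CPM (WT) and 2137 and 1741 CPM (KO), and the ficolin gene Fcna had 982 and 1433 CPM (WT) and 1535 and 1129.9 CPM (KO). The 3 that reached an unadjusted p under 0.05 were Mbl1 (−2.47), Mbl2 (−2.35) and Masp2 (−2.75), which hepatocytes make. Of the HGF partners, Hgfac (−4.14) and Hpn (−1.72), a pair of hepatocyte proteases that can activate HGF, did so too, and they were also the most abundant of that list. These 5 genes are at 316 to 843 CPM in a WT hepatocyte library, and hepatocyte RNA was lower in the HSC KO libraries, as given above. Its part in these values was not tested.

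Of the LIM domain partners 4 of 6 were tested and 3 were estimated higher, among them Ldb2, a cofactor of Lhx2, with 86.3 and 146 CPM (WT) and 165 and 158 CPM (KO), a log2 fold change of 0.47 (SE 0.28, edgeR adjusted p = 0.736). Lmo4 had 92.5 and 73.3 CPM (WT) and 103 and 85.1 CPM (KO). Of the filament partners, Des had 513 and 490 CPM (WT) and 648 and 669 CPM (KO), and Vim 486 and 346 CPM (WT) and 554 and 372 CPM (KO). Synm, the remaining gene of that list, was estimated lower, with a log2 fold change of −1.21 (SE 0.58, edgeR adjusted p = 0.645). Of the genes whose products bind ECM1 or are linked to it, 3 of 5 were estimated higher, and Hspg2, which encodes perlecan, had 53.5 and 57.2 CPM (WT) and 70.4 and 63.9 CPM (KO). Fbln1, which encodes fibulin 1, had 109 and 37.7 CPM (WT) and 40.0 and 84.1 CPM (KO).

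The 16 other HSC markers had a median log2 fold change of 0.17 in HSCs, with 11 estimated higher, 5 lower and 0 past the threshold. The highest were Sod3 (0.68), Hand2 (0.46), Angptl6 (0.38) and Des (0.38). The lowest were the HSC transcription factor Tcf21 (−1.36), Rgs5 (−0.87), Vipr1 (−0.58) and Pdgfrb (−0.56), of which Rgs5 and Vipr1 reached an unadjusted p under 0.05. Of the 20 activation genes 18 were tested, 6 were estimated higher and 12 lower, 0 passed, and the median was −0.06. The contractile genes Cnn1 (2.45), Acta2 (1.93) and Tpm2 (1.17) and the ligand gene Tgfb1 (0.75) were highest. Acta2, which encodes smooth muscle actin, had 25.5 and 31.1 CPM (WT) and 54.7 and 160 CPM (KO), with a log2 fold change of 1.93 (SE 0.55, unadjusted p = 0.0143, edgeR adjusted p = 0.427). Col3a1 (−1.27), Lox (−1.22), Spp1 (−1.21) and Tnc (−0.96) were lowest. Besides Acta2, the activation genes with an unadjusted edgeR p under 0.05 were Tpm2 (0.0121), Spp1 (0.00274) and Col3a1 (0.0297). Their edgeR adjusted p-values were 0.418, 0.329 and 0.504. Col3a1, a fibrillar collagen gene, had 2327 and 1588 CPM (WT) and 1186 and 498 CPM (KO).

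Myh11, a smooth muscle myosin in the list of portal fibroblast and smooth muscle markers, was also estimated higher under the KO label. It had 25.0 and 26.7 CPM (WT) and 49.9 and 90.04 CPM (KO), a log2 fold change of 1.44 (SE 0.36, edgeR adjusted p = 0.381). The summed level of that list was 274 and 136 CPM (WT) and 239 and 217 CPM (KO), which overlapped. The sum pools fibroblast and smooth muscle genes, which were estimated in both directions, so it does not stand for smooth muscle alone. The part of smooth muscle cells in the contractile genes was not tested. The Schwann cells of nerves are known to use Gfap and Ngfr as well, and for 5 Schwann cell markers the sum in the HSC libraries was 1.18 to 3.87 CPM. Of these 5 markers, 2 or 3 had 0 counts in each HSC library.

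The genes that ran most like the members over the 16 libraries were found among 8595 genes that averaged 10 CPM or more in HSCs. By Pearson correlation of log2 CPM with the mean standardized member these were Rbms3 (r = 0.990), Dcn, Plvap, Cygb, Abi3bp, Ifitm1, Bgn and Plekhh2 (r = 0.987). The r is a description over libraries that fall into cell types and share depth. Dcn, the matrix proteoglycan decorin, averaged 35548 CPM in HSCs and reached at most 560 CPM elsewhere. Cygb, cytoglobin, is a known HSC gene and averaged 550 CPM. Plvap averaged 7897 CPM in HSCs and reached at most 471 CPM in any other library, although it encodes the antigen of the antibody Meca32 that was used to sort ECs. The correlation of each member with the mean of the other 9 was 0.920 to 0.984, except for Nes with 0.696.

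In ECs, 8 of the 10 members were estimated lower under the KO label and 0 passed the threshold, which 2.08% of the 14631 genes tested did. Ngfr was counted at 28.3 and 35.1 CPM (WT) and at 5.29 and 9.18 CPM (KO), a log2 fold change of −2.11 (SE 0.40, edgeR adjusted p = 0.0566). Hhip had 4.47 and 3.88 CPM (WT) and 0.696 and 0.417 CPM (KO), a log2 fold change of −2.90 (SE 0.80, edgeR adjusted p = 0.164). Ecm1 fell short at −1.02 (SE 0.27), Hgf at −0.97 (SE 0.25) and Colec11 at −1.34 (SE 0.36). In normalized CPM these 5 genes did not overlap between labels, with Nes as the sixth. Reln overlapped on that scale but not in raw CPM. Not overlapping in normalized CPM held for 48.5% of all genes tested in ECs. DESeq2 called Ngfr, Hgf, Hhip, Ecm1 and Colec11, and it called 6.72% of all genes there. The same 5 members reached an unadjusted p under 0.05 in edgeR, as did 15.0% of all genes. Without EC WT library 34 edgeR called Ngfr (adjusted p = 0.0486), among 86 genes higher and 602 lower. Nes pointed the other way at 0.80 (SE 0.36, edgeR adjusted p = 0.370).

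Markers of HSCs, hepatocytes and lymphocytes were also estimated lower in the EC KO libraries, whereas those of KCs were estimated higher. The 16 other HSC markers stood at medians of 1.40% and 1.58% of their HSC level in the EC WT libraries and at 0.379% and 0.785% in the EC KO libraries. Their summed level was 835 and 1046 CPM (WT) and 337 and 536 CPM (KO). All 15 that were tested were estimated lower, with a median log2 fold change of −1.35 beside −1.05 for the members and −0.01 for all genes, and Vipr1 passed at −3.18 (SE 0.39, edgeR adjusted p = 0.0290). The members stood at medians of 1.66% and 1.76% (WT) and 0.429% and 1.11% (KO). The hepatocyte-enriched genes stood at 11.1% and 22.9% of their hepatocyte level in the EC WT libraries and at 3.34% and 2.28% in the EC KO libraries. All 10 hepatocyte markers passed the threshold as lower, with a median log2 fold change of −2.94. All 5 lymphocyte markers were estimated lower (median −1.32) and all 10 KC markers higher (median 0.84), with 0 past the threshold in either list. The part of HSC RNA and of other RNA in the lower member levels of the EC KO libraries was not tested.

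**Figure D4:**
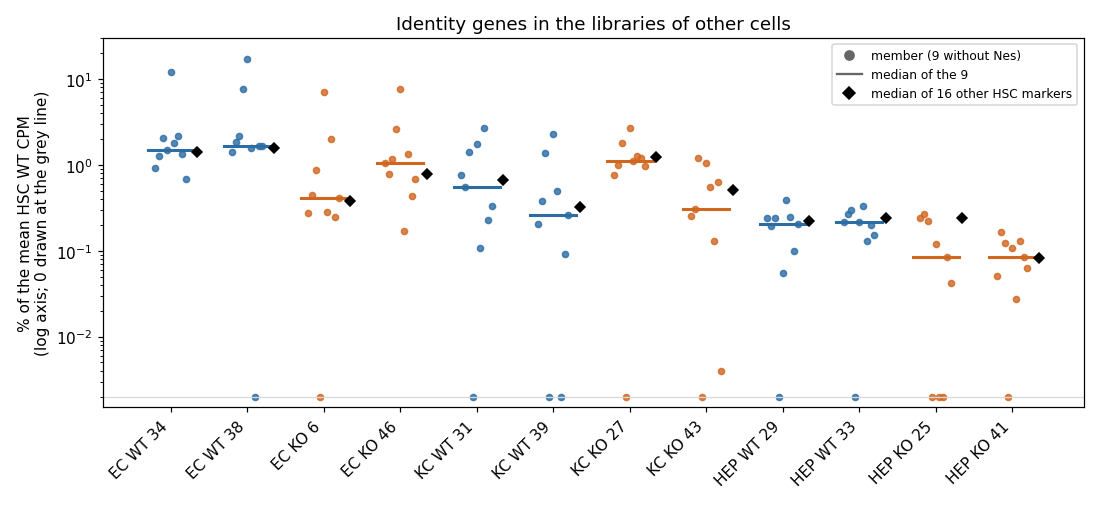
Level of 9 members (points, without Nes) in the libraries of ECs, KCs and hepatocytes, as percent of their mean in the HSC WT libraries (log axis), with their median (line) and the median of 16 other HSC markers (diamond). Member and marker medians lie below 2%, and in the EC libraries the KO medians lie below the WT medians.

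In KCs 8 members could be tested and in hepatocytes 7, and none passed there (0% of 13867 and 0% of 11548 genes, with 5.09% and 7.11% at an unadjusted p under 0.05). In KCs Ngfr had 4.90 and 1.96 CPM (WT) and 25.6 and 13.5 CPM (KO), a log2 fold change of 2.40 (SE 0.66, unadjusted p = 0.0102, edgeR adjusted p = 0.933). The other HSC markers in KCs stood at 0.662% and 0.319% (WT) and at 1.22% and 0.509% (KO) of their HSC level, with a median log2 fold change of 0.61. The hepatocyte-enriched genes stood at 4.73% and 8.57% (WT) and at 9.72% and 11.4% (KO) of their hepatocyte level in KCs. All 10 hepatocyte markers (median 0.55), 9 of 10 EC markers (0.46) and all 5 mesothelial markers (1.54) were estimated higher there, and 0 passed. The part of this RNA in the level of Ngfr was not tested. In hepatocytes Hhip had 15 and 12 counts (WT) and 0 and 1 counts (KO), with a log2 fold change of −4.37 (SE 1.34, unadjusted p = 0.0175, edgeR adjusted p = 0.700). Reln had 3.44 and 2.59 CPM (WT) and 0.709 and 1.08 CPM (KO) there, with an unadjusted p of 0.0406. All 7 members tested in hepatocytes were estimated lower. So were 9 of 10 KC markers (median −0.996), 9 of 10 EC markers (−0.57) and 8 of 13 other HSC markers (−0.14), with 0 past the threshold. The mesothelial markers tested were estimated higher (Msln 1.60, Lrrn4 0.67, Upk3b 0.60, Upk1b 0.15). Of the cholangiocyte markers, Epcam (1.37), Krt19 (0.57) and Sox9 (0.47) were estimated higher and Krt7 (−0.41) lower. The part of other cells in the member values was not tested. The labels did not overlap for 2 of 8 members in KCs (37.3% of all genes) and for 4 of 7 in hepatocytes (40.8%).

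Whether the label difference in HSCs was unlike that of another cell type was tested as an interaction over the 16 libraries. No member passed against ECs (0.0349% of all genes did), KCs (0.593%) or hepatocytes (0.0755%). The lowest edgeR adjusted p was that of Ngfr against KCs, at 0.0956, for a difference of −2.95 (SE 0.74) on the log2 scale. Hhip followed with −2.62 (SE 0.69, edgeR adjusted p = 0.118). DESeq2 gave adjusted p-values of 0.00322 and 0.00782 for this pair and called 4.51% of all genes. At an unadjusted p under 0.05 there were 4 members against ECs (4.85% of all genes), 2 against KCs (11.7%) and 1 against hepatocytes (7.16%). Without KC WT library 39 Hhip passed against KCs at −3.94 (edgeR adjusted p = 0.0473), among 121 genes that were all lower, and without KC KO library 27, which leaves the KO library with 1 Reln count, Reln passed at 5.90 (edgeR adjusted p = 0.0204), among 159 higher and 197 lower.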

How the data were processed

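RNA of 4 liver cell types was sequenced in 16 libraries, and each group held 2. What the authors deposited were unnormalized counts of reads per Ensembl gene. The submitters' processing notes name Trimmomatic 0.32, HISAT2 2.1.0, HTSeq 0.9.1 and GRCm38. The sample labels name a stranded kit and the series text another library preparation, so the preparation stays unsettled, and the strand setting and annotation release are not given in the sources used here. The 5 summary lines of each table were left out. GENCODE vM21 held 99.1% of the gene identifiers and gave exonic lengths, and promoters came from RefSeq (GRCm38.p6).

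Depth was 12872706 to 15690506 reads on genes (median 14806833). CPM and TPM were computed from the raw totals, whereas fold changes and the counts of genes without overlap between labels used TMM normalization. TMM factors were 0.497 to 0.588 for hepatocytes and 1.14 to 1.24 for HSCs, so that CPM ratios and fold changes between these differ. Tests used edgeR 4.0.16 in R 4.3.3 (filterByExpr, quasi-likelihood, Benjamini-Hochberg over all genes tested, 0.05). Cell types and interactions were tested over 16 libraries with 8 group means, and labels within the 4 libraries of a cell type. SEs were derived from the F statistic. The labels do not say which libraries share a mouse, so p-values measure the spread between these samples. The code was tested on simulated data. Plots used Python 3.11.15 and matplotlib 3.10.9.

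Alternatives were DESeq2 1.42.0, RLE size factors, 2 other filters on low counts, other thresholds, a joint fit, thinning, omission of hepatocyte-enriched genes (at least 10 CPM in WT hepatocytes and 8 times the WT KC level), WT libraries alone, each library left out and, added after the data were seen, a block of 4 consecutive library numbers. Members and lists were chosen with earlier results of these data known. Named besides the members were, of each partner list, the genes at an unadjusted p under 0.05 in HSCs and the 2 most abundant there, the 4 highest and 4 lowest of the other HSC markers and activation genes, and the 8 genes closest in profile; 1 gene that this rule names is not reported here. Marker lists for cholangiocytes, mesothelium and lymphocytes were read as well. Vipr1 in ECs, Myh11 and Synm were outside this rule and were named after their values were seen.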

Additional observations from a re-analysis of the deposited data

Results flagged for a closer look

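Hhip and Ngfr were estimated higher under the KO label in KCs and lower in ECs, HSCs and hepatocytes, with no overlap between labels in any of the 4 cell types. In a single cell type, between 37.3% (KCs) and 48.5% (ECs) of all genes tested did not overlap. The share of all genes without overlap in all 4 cell types was not computed, so how unusual the joint pattern is was not tested. The difference between the log2 fold changes of KCs and ECs was 4.33 for Hhip and 4.51 for Ngfr. Between KCs and HSCs it was 2.60 and 2.92, and between KCs and hepatocytes 5.80 and 3.15. The difference between KCs and HSCs was tested as an interaction and did not pass (edgeR adjusted p = 0.118 for Hhip and 0.0956 for Ngfr). The differences of KCs from ECs and hepatocytes were not tested. Hhip had 4 and 19 counts in the KC WT libraries, 42 and 20 in the KC KO libraries, and 0 and 1 in the hepatocyte KO libraries, so that these folds rest on few reads.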

How the results depend on the processing

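The groups share no library number, and the labels do not say what the numbers mean. Sets of 4 consecutive numbers were tried as a block after the data were seen, with 1 additive cell type effect. The block left 9, 10 and 10 members higher in HSCs than in ECs, KCs and hepatocytes, and Nes against ECs turned to 0.10. Of 10 pairs of libraries in one set, 5 had deviations from their group means that correlated above 0.1 across genes (−0.014 to 0.14). Deviations in a group of 2 libraries mirror each other, so pairs across the same 2 groups give the same value. The values 0.124 and 0.126 each stand for 2 pairs, and the 10 pairs are not independent. No set holds 2 libraries of one cell type, so the labels within a cell type cannot be blocked, and the interactions were not blocked. The count of members higher in HSCs was 9, 10 and 10 against ECs, KCs and hepatocytes under every other alternative and with each library left out, while the value of Nes against ECs turned to 0.038 with WT libraries alone. The count of members past the threshold between labels was 0 in each cell type and moved to 1 in HSCs with no filter (2.70% of all genes called) or DESeq2 (2.84%) and to 2 at an unadjusted p under 0.05 (8.75%). In ECs it moved to 1 in a fit of all 16 libraries (2.46%) or at an adjusted p under 0.1 (3.62%), to 4 with no filter (5.26%), and to 5 with DESeq2 (6.72%) or unadjusted (15.0%). In KCs it moved to 1 with no filter (0.704%) or unadjusted (5.09%), and in hepatocytes to 2 unadjusted (7.11%). For the interactions it moved to 4 against ECs (4.85%) and 1 against hepatocytes (7.16%) unadjusted. Against KCs it moved to 1 at an adjusted p under 0.1 (1.89%) and to 2 with no filter (3.81%), DESeq2 (4.51%) or unadjusted (11.7%). The cause was not tested. With each library left out, the count past the threshold ranged from 0 to 1 for ECs and the KC interaction and stayed at 0 for the others. For the share of RNA in HSCs, only the 4 HSC libraries were left out, each within its own label. There 8 to 9 members had at least 90% of their RNA in HSCs, a range over both labels. With all libraries kept, Hgf already lay below 90% under the WT label (85.8%) and above it under the KO label (91.4%).

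In HSCs, leaving out each library moved Hhip from −1.43 to −0.88, Ngfr from −0.79 to −0.30 and Lhx2 from 0.42 to 1.08. Reln ranged from −0.39 to 0.082 (without KO library 20), Hgf from −0.26 to 0.13 (KO 20), Colec10 from −0.16 (WT 40) to 0.41, Gfap from −0.74 to 0.26 (KO 8) and Nes from −0.20 (KO 8) to 0.33. Lhx2 in ECs ranged from −0.39 (without WT 38, which had 0 counts) to 6.61. Reln in KCs ranged from −6.07 (without KO 27) to 1.58, and its interaction against KCs from −1.79 to 5.90 (without KO 27). Where 1 library was left in a group, it was assumed to vary like the others. RLE size factors shifted the members by at most 0.08 in the median. Low members outside HSCs rest on few reads.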
